A study of Felis catus with 12 samples.

Results

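The genes described here are 10 genes of the nuclear lamina and of the LINC complex: the lamin genes LMNA, LMNB1 and LMNB2, the inner nuclear membrane genes EMD, TMPO and LBR, the SUN domain genes SUN1 and SUN2, and the nesprin genes SYNE1 and SYNE2. They were chosen by name, because the size and shape of nuclei were measured in the study. All 10 were found among the 30785 genes listed. The tissue was left ventricular free wall of client-owned cats, collected post mortem from carcasses that had been kept cold, and RNA was read directly on Oxford Nanopore flow cells. There were 12 libraries, 1 per cat, and no cat was treated or genetically modified for the study. The labels group the libraries only by the run prefix in the library name, with 4 libraries on each of 3 flow cells, which are called A (cats 11, 23, 30 and 31), B (cats 10, 15, 35 and 36) and C (cats 22, 29, 37 and 38). The outcome of a cat is not in the labels. The study's cohort list gives congestive heart failure (HF) for cats 11, 15, 30, 31, 35 and 37, arterial thromboembolism (ATE) for cats 10, 23 and 38, and no known cardiac death for cat 36. The same list holds cat 22 with ATE and cat 29 without known cardiac death, but the study names cats 16 and 25, which no library carries, as sequenced in their place. The identity of these 2 libraries is therefore in doubt, and they are given no outcome. Of the 10 listed cats, 7 were domestic shorthairs, 2 were Maine Coons and 1 was a Birman.

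Lamins are intermediate filament proteins that form a meshwork under the inner nuclear membrane. LMNA encodes the A-type lamins A and C, which rise as cells mature and stiffen the nucleus, and LMNB1 and LMNB2 encode the B-type lamins. Emerin (EMD), the LAP2 proteins (TMPO) and the lamin B receptor (LBR) hold chromatin and lamins at the membrane. SUN1 and SUN2 span the inner membrane and bind nesprins (SYNE1 and SYNE2) in the outer membrane, and together they form the LINC complex, the bridge from the lamina to the cytoskeleton. Mutations in LMNA and EMD are known causes of human cardiomyopathy, and a working heart muscle cell pulls on its nucleus with each beat.

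Reads per gene were counted without telling transcripts apart, so lamin A from lamin C, the LAP2 forms, and the giant from the short nesprins cannot be separated. Values are given as scaled reads, that is, reads over the size factor of their library (from 0.699 to 2.07). Because no gene lengths were used, levels are compared between libraries and not between genes. Between 789257 and 2263110 reads per library fell on genes, so that 3 reads corresponded to a value of 1.45 in the deepest library (cat 11) and of 4.29 in that of cat 37. The markers of the labelled tissue were present: each of 10 cardiomyocyte markers had at least 343 reads in every library, and their summed level was 116782 to 253502 scaled reads. RNA of other cells was read as well, with summed levels of 359 to 3471 for 8 fibroblast markers and 66.7 to 581 for 8 leukocyte markers, of which MS4A1 had no read. These sums are of different genes and are not compared with each other. In bulk tissue, fewer cells of a type and less RNA per cell cannot be told apart.

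The 10 genes together took a small and narrow part of each library. They summed to 196 to 357 CPM (reads scaled to a common library total), with 266 to 357 on flow cell A, 196 to 279 on flow cell B and 223 to 298 on flow cell C. LMNA had the most reads, 1204 over the 12 libraries, followed by EMD with 801, SUN2 with 673, SUN1 with 547, SYNE1 with 368, SYNE2 with 248, LMNB1 with 169, TMPO with 133, LBR with 82 and LMNB2 with 71. LMNA, EMD, SUN1, SUN2, SYNE1 and SYNE2 had at least 10 reads in all 12 libraries, TMPO in 7, LMNB1 in 4, LBR in 2 and LMNB2 in 1. A gene was tested when it had at least 10 reads in at least 3 libraries. This left 8 of the 10 genes among 8820 tested genes, and LMNB2 and LBR are described by their values.

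**Figure D1:**
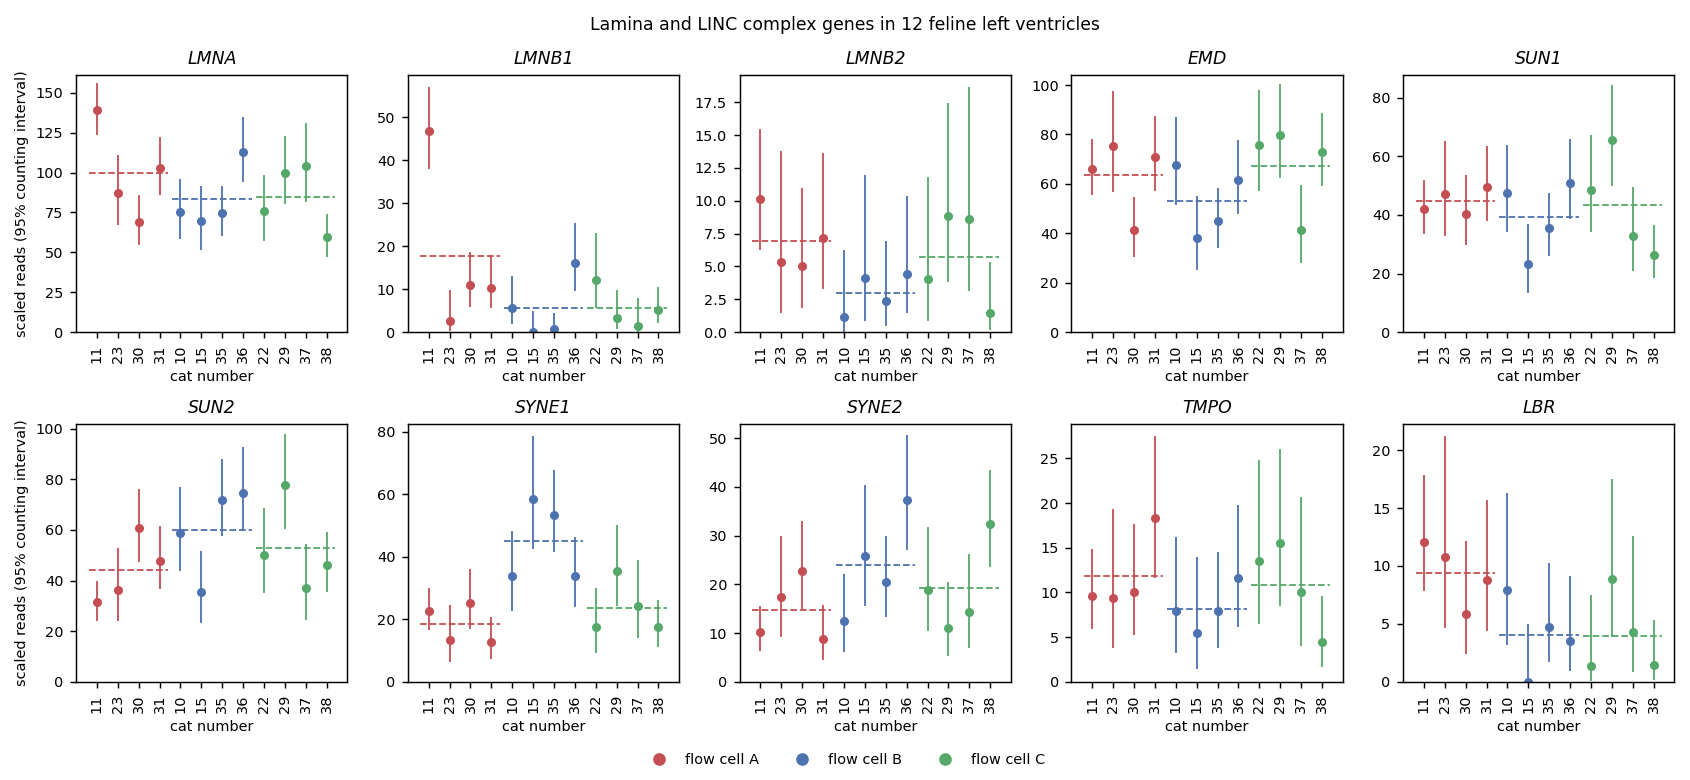
Level of each of the 10 genes in scaled reads (y axis, from 0, scale differs between panels) in each of 12 libraries (x axis, cat number). Points are libraries colored by flow cell, vertical bars are exact 95% Poisson intervals for counting error only, and dashed lines are flow cell means. SYNE1 stands between 33.8 and 58.5 on flow cell B and between 12.8 and 25.3 on flow cell A, and LMNB1 stands at 46.8 in cat 11 against 16.0 or less elsewhere.

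The A-type lamin gene LMNA was among the steadiest of the 10. On flow cell A it stood at 139 in cat 11, 87.3 in cat 23, 69.0 in cat 30 and 103 in cat 31. On flow cell B it stood at 75.5 in cat 10, 69.4 in cat 15, 74.8 in cat 35 and 113 in cat 36, and on flow cell C at 75.6 in cat 22, 99.8 in cat 29, 104 in cat 37 and 59.6 in cat 38. The flow cells overlapped, and cats 11 and 36 were the highest in scaled reads. In CPM, cats 11 (127) and 37 (85.6) were the highest, and cat 36 stood at 72.3. The coefficient of variation over the 12 libraries was 25.8%, where counting error alone gives 10.6%. The range covered 2.33-fold.

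LMNB1, which encodes lamin B1, varied most. It stood at 46.8 in cat 11 (97 reads), 2.69 in cat 23, 10.9 in cat 30 and 10.4 in cat 31 on flow cell A. On flow cell B it stood at 5.64 in cat 10, 0.788 in cat 35 and 16.0 in cat 36, and cat 15 had 0 reads, where a floor of 3 reads is a level of 4.08 and the two-sided interval drawn in the plot of levels ends at 5.02. On flow cell C it stood at 12.2 in cat 22, 3.33 in cat 29, 1.43 in cat 37 and 5.15 in cat 38. The library of cat 11 thus stood above the other 11, and its counting interval lay wholly above that of cat 36 (9.50 to 25.3), the next highest. The coefficient of variation was 133%, against 28.6% from counting error. Over the other 11 libraries LMNB1 had between 0 and 18 reads.

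Genes of dividing cells were read beside LMNB1, since B-type lamin RNA is abundant in many cycling cells. PCNA, the sliding clamp of DNA replication, stood at 46.8 in cat 11, between 25.3 and 33.5 in the other 3 libraries of flow cell A, and between 9.98 and 24.5 in the other 8 libraries. TOP2A, a topoisomerase of dividing cells, stood at 10.4 in cat 31 (13 reads) and 7.72 in cat 11 (16 reads). Elsewhere it stood at 3.94 or less (5 or fewer reads). CDK1, the mitotic kinase, stood at 6.38 in cat 31 (8 reads) and 6.27 in cat 11 (13 reads). Elsewhere it stood at 4.21 or less (5 or fewer reads). The summed level of 6 such genes (MKI67, TOP2A, CCNB1, CDK1, BUB1 and PCNA) was 71.9 in cat 11 and 61.4 in cat 31, and 13.3 to 32.8 in the others. Cat 11 was therefore high in both, whereas cat 31 was high in these genes and had an LMNB1 level of 10.4, and cat 36 had the second highest LMNB1 level with a summed level of 20.5. In CPM, LMNB1 was 10.2 in cat 36 and 10.7 in cat 30. Over the 12 libraries the rank correlation of LMNB1 with the summed level was 0.126, with BUB1 and CDK1 without a read on all of flow cell B. The part of dividing cells in the LMNB1 level was not tested.

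**Figure D2:**
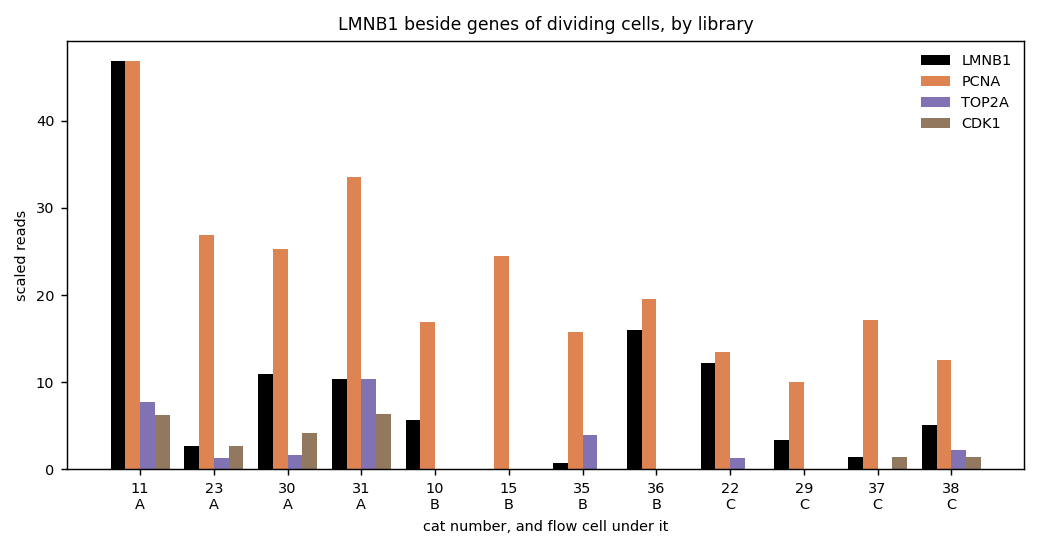
Level of LMNB1 and of 3 genes of dividing cells, PCNA, TOP2A and CDK1, in scaled reads (y axis) in each library (x axis, cat number with its flow cell). Bars are single libraries without replicates, and cat 11 has the highest LMNB1 and PCNA bars, whereas cat 36 has LMNB1 at 16.0 and no TOP2A or CDK1.

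LMNB2, the other B-type lamin gene, had 1 to 21 reads per library. It stood between 5.05 and 10.1 on flow cell A, between 1.13 and 4.45 on flow cell B, and between 1.47 and 8.87 on flow cell C. Every library of flow cell A, with 4 to 21 reads, was above every library of flow cell B, with 1 to 5 reads, as was the case, in either direction, for 11.8% of the tested genes. The coefficient of variation of 56.2% lay close to the 44.0% of counting error. Taken as a share of all lamin reads, LMNA took 70.9% in cat 11 (95% exact binomial interval 66.3 to 75.3%) and 81.2 to 96.0% in the other 11 libraries. Of the 406 lamin reads of cat 11, 97 were of LMNB1.

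Of the inner membrane genes, EMD, the emerin gene, ranged from 38.1 to 79.8 with a median of 66.9 and a coefficient of variation of 25.2% (counting error 12.9%). Its 4 lowest values were those of cat 15 (38.1), cat 30 (41.2), cat 37 (41.5) and cat 35 (44.9), and the other 8 libraries stood at 61.4 or above. The low values came from all 3 flow cells. The 4 cats are all listed with congestive HF, but so are 6 of the 10 cats with an outcome. Cats 11 (66.1) and 31 (71.0), also with congestive HF, were not among the low values. The set of low values depended on the scaling. In CPM, cat 36, without known cardiac death, stood at 39.3, below cats 35 (39.6) and 30 (40.3). A link of EMD with outcome was not tested. TMPO ranged from 4.41 to 18.3 with a coefficient of variation of 38.7%, close to the 31.5% of counting error. LBR stood at 12.1, 10.7, 5.89 and 8.77 in cats 11, 23, 30 and 31 of flow cell A, and between 0 and 8.87 in the other 8 libraries, with 8 reads at most in any of them and 0 in cat 15. The LBR ranges overlapped, with flow cell A in the upper part.

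The SUN genes went together in part (rank correlation 0.566 over 12 libraries). SUN1 ranged from 40.4 to 49.5 on flow cell A, from 23.1 to 50.8 on flow cell B and from 26.5 to 65.4 on flow cell C, so the 4 libraries of flow cell A were the closest together. SUN2 stood at 31.4, 36.3, 60.6 and 47.9 in cats 11, 23, 30 and 31 of flow cell A, at 58.6, 35.4, 71.7 and 74.8 in cats 10, 15, 35 and 36 of flow cell B, and at 50.0, 77.6, 37.2 and 46.3 in cats 22, 29, 37 and 38 of flow cell C. The flow cells overlapped in both genes. SUN2 took between 42.8% of the SUN reads in cat 11 (interval 34.8 to 51.0%) and 66.9% in cat 35 (58.3 to 74.7%), which are the lowest and the highest of the 12. On flow cell B all 4 shares were between 55.3 and 66.9%, whereas on flow cell A they were between 42.8 and 60.0%.

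SYNE1, the gene of nesprin-1, which anchors the nuclei of striated muscle, had its highest levels on flow cell B. On flow cell A it stood at 22.7 in cat 11, 13.4 in cat 23, 25.3 in cat 30 and 12.8 in cat 31. On flow cell B it stood at 33.8 in cat 10, 58.5 in cat 15, 53.6 in cat 35 and 33.8 in cat 36. On flow cell C it stood at 17.6 in cat 22, 35.5 in cat 29, 24.3 in cat 37 and 17.6 in cat 38. In scaled reads, each library of flow cell B was above each of flow cell A, as 11.8% of the tested genes also did not overlap between A and B. Flow cell C overlapped with both, since cat 29 stood above cats 10 and 36. In CPM, cat 36 of flow cell B stood at 21.6, below cat 30 of flow cell A at 24.7, so A and B overlapped. The means were 18.5 ± 6.37 on A, 44.9 ± 13.0 on B and 23.7 ± 8.43 on C (SD, n = 4 cats each). Within flow cells the coefficient of variation was 33.3%, against 50.9% over all 12 libraries and 18.9% from counting error.

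SYNE2, the gene of nesprin-2, ranged from 8.77 to 22.7 on flow cell A, from 12.4 to 37.4 on flow cell B and from 11.1 to 32.4 on flow cell C, with cats 36 and 38 the highest. The flow cells overlapped. SYNE1 took between 35.3% of the nesprin reads in cat 38 (interval 24.1 to 47.8%) and 76.2% in cat 29 (60.5 to 87.9%), both on flow cell C. These are the lowest and the highest of the 12 shares, and their intervals cover counting error only.

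**Figure D3:**
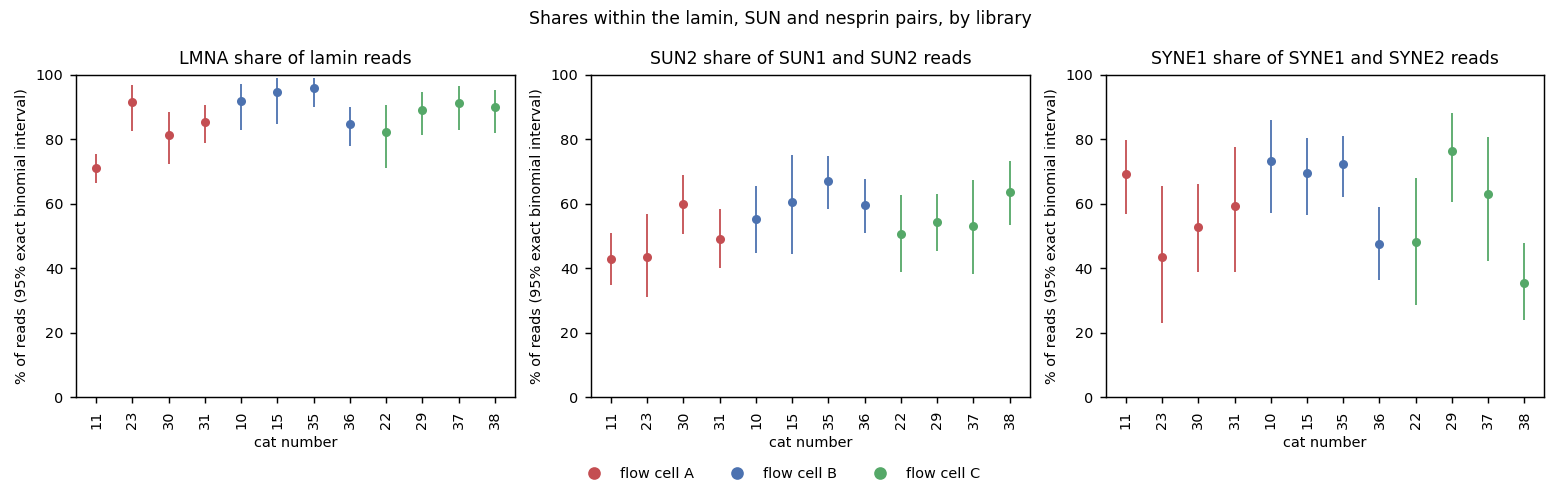
Share of reads (y axis, %, 0 to 100) that LMNA took of all lamin reads, SUN2 of SUN1 and SUN2 reads, and SYNE1 of SYNE1 and SYNE2 reads, in each of 12 libraries (x axis, cat number, colored by flow cell). Bars are 95% exact binomial intervals for counting error only. Cat 11 has the lowest lamin share at 70.9%, and cats 38 and 29 span the nesprin shares from 35.3 to 76.2%.

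Flow cell A was compared with the other 8 libraries, since the run is the only grouping in the labels. Each flow cell held different cats, so differences between runs and between cats cannot be told apart. Of 8820 tested genes, 446 (5.06%) had an adjusted p under 0.05 by limma on log2(scaled reads + 1), 141 higher (1.6%) and 305 lower (3.46%) on flow cell A. Without scaling, 81 genes passed, 76 higher and 5 lower, and without cat 11 the scaled values gave 51. Of the 8 tested genes of the lamina and LINC complex, 0 passed by limma, edgeR or DESeq2. At an unadjusted p under 0.05 there was 1 of 8 by limma, where 1878 of all genes (21.3%) passed, and 2 by each of the other tools. The median difference was 0.13 on the log2 scale for the 8 genes, 5 of them positive. Over all tested genes it was 0.03, with 4600 of 8820 positive.

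The gene past the unadjusted threshold was SYNE1, which differed by -0.80 ± 0.34 (log2 scale, SE, 95% interval -1.51 to -0.08; limma adjusted p = 0.187). By edgeR and DESeq2, SYNE1 (adjusted p = 0.171 and 0.137) and LMNB1 (adjusted p = 0.167 and 0.174) were past it. LMNB1 differed by 1.46 ± 0.77 (interval -0.15 to 3.08, limma adjusted p = 0.283), and by 0.82 without cat 11. For the others the intervals were -0.26 to 0.71 for LMNA, -0.45 to 0.62 for EMD, -0.38 to 0.75 for SUN1, -0.90 to 0.22 for SUN2, -1.26 to 0.26 for SYNE2 and -0.45 to 1.11 for TMPO, with limma adjusted p between 0.444 and 0.880. These intervals hold the differences that the 12 libraries do not exclude. With all genes with a read tested, LBR differed by 1.32 (interval 0.09 to 2.55, limma adjusted p = 0.311) and LMNB2 by 0.71 (interval -0.37 to 1.80, limma adjusted p = 0.586). No gene of the 10 had values that did not overlap between flow cell A and the other 8 libraries, where 371 tested genes (4.21%) had.

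Between flow cells B and C, 3 of 8820 genes passed (0.034%) by limma, and 0 of the 8 tested genes of the lamina and LINC complex, also by edgeR and DESeq2. SYNE1 was again the 1 gene at an unadjusted p under 0.05, where 7.89% of all genes passed. It was higher on flow cell B by 0.91 ± 0.33 (interval 0.21 to 1.61, limma adjusted p = 0.496). The adjusted p was 0.494 by edgeR and 0.443 by DESeq2. Values that did not overlap were found for 0 of the 10 genes between B and C (4.21% of all tested genes), for 0 between A and C (10.4%), and between A and B for 1 of the 8 tested genes, SYNE1, which is close to the share of all tested genes (11.8%). LMNB2, which was not tested, did not overlap between A and B either. These counts are for scaled reads, and in CPM SYNE1 did overlap between A and B. SYNE1 thus had its highest mean on B and lower means on A and C, with no adjusted p under 0.05 in either comparison.

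**Figure D4:**
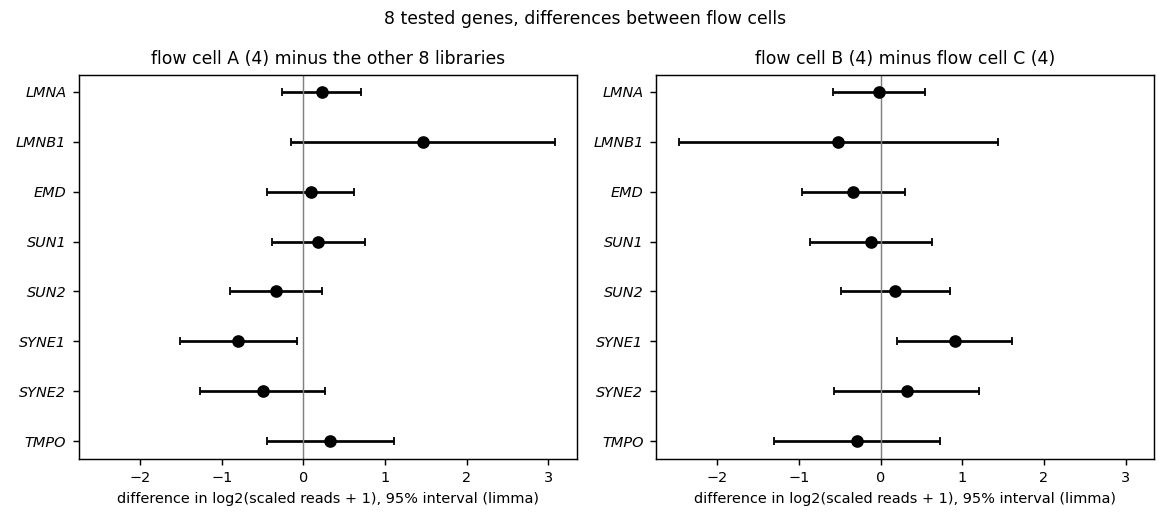
Differences of 8 tested genes between flow cells on the log2(scaled reads + 1) scale (x axis) with 95% intervals from limma. The left panel shows flow cell A (4 libraries) minus the other 8 libraries and the right panel flow cell B minus flow cell C (4 libraries each). The SYNE1 interval alone lies apart from 0, from -1.51 to -0.08 on the left and from 0.21 to 1.61 on the right.

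Some markers of cell types differed on flow cell A, where 3.46% of all tested genes were lower and 1.6% higher. On flow cell A, 5 of 10 cardiomyocyte markers were lower (TNNT2, TNNI3, MYL3, MB and PLN, by -0.96 to -1.64 on the log2 scale), 2 of 8 fibroblast markers were higher (COL1A1 by 2.63 and COL3A1 by 1.84), 2 of 6 smooth muscle and pericyte markers were higher (TAGLN by 2.63 and CNN1 by 5.90), and PCNA was higher by 0.99, all with limma adjusted p under 0.05. Of 12 fits with 1 library left out, COL1A1, TAGLN and CNN1 passed in 12, TNNT2 and MYL3 in 11, TNNI3 and MB in 10, COL3A1 in 4, PLN in 3 and PCNA in 1. Without cat 11, and likewise without scaling, 0 cardiomyocyte markers passed. None of the 8 endothelial and 6 tested leukocyte markers passed, although CD163, named after its values were seen, did without cat 35, and adipocyte markers, which summed to 1.34 to 12.4, were under the filter. Not all markers of a list went the same way: 2 of 10 cardiomyocyte differences were positive and 1 of 8 fibroblast differences was negative. Between flow cells B and C, 0 markers of any list passed by limma. There, 6 of 8 fibroblast markers were lower on B at an unadjusted limma p under 0.05. The summed cardiomyocyte level was 116782 to 189813 on flow cell A and 125219 to 253502 in the other 8 libraries. Flow cell B, where SYNE1 was highest, had the lowest summed fibroblast level, 359 to 930, against 1256 to 3471 on A and 1029 to 1931 on C. Over the 12 libraries, which share these runs, the rank correlation of SYNE1 with the summed fibroblast level was -0.734, and within flow cells the correlation of log2 values was -0.49. With the summed cardiomyocyte level SYNE1 had a rank correlation of 0.042, and of log2 values within flow cells one of -0.53. SUN1 had rank correlations of 0.615 with the cardiomyocyte level and -0.650 with the endothelial level, which were 0.59 and -0.52 within flow cells. These correlations were picked, after their values were seen, from those of all 10 genes with the summed marker levels. Others were of like size. With the smooth muscle and pericyte level, SYNE2 had -0.678 and LBR 0.664, which were -0.76 and 0.35 within flow cells. LBR had 0.650 with the leukocyte level, and 0.37 within flow cells. The part of tissue make-up in the levels of any of the 10 genes was not tested.

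Other genes that work with the lamina did not pass by limma in the comparison of flow cell A with the others. Of the enzymes and binding partners of lamin maturation, 0 of 5 tested passed (6 listed) and 2 were at an unadjusted p under 0.05. Those 2 were FNTA, the shared subunit of farnesyltransferase, and NARF, in opposite directions. FNTA stood at 98.1 on flow cell A and 64.3 in the others (means, difference 0.61, limma adjusted p = 0.151). NARF stood at 20.5 and 30.9 (difference -0.59, limma adjusted p = 0.228). ZMPSTE24, the protease that cuts prelamin A, stood at 66.8 and 51.6 and was not among the 2. Of further inner membrane and lamina partners, 0 of 12 tested passed (17 listed) and 2 were at an unadjusted p under 0.05, with a median difference of 0.01. TMEM38A, a cation channel of the reticulum and nuclear envelope of muscle, stood at 43.7 and 90.5 (difference -1.20, limma adjusted p = 0.077), and PLPP7, a muscle nuclear envelope protein, at 19.7 and 35.3 (difference -0.90, limma adjusted p = 0.131). BANF1, which bridges chromatin to emerin and LAP2, stood at 213 and 212. Of the cytoskeletal partners, 0 of 11 tested passed (12 listed) and 1 was at an unadjusted p under 0.05, ACTN2, the muscle alpha-actinin, which passed by DESeq2. The list also holds DES, the muscle intermediate filament desmin, at 5067 and 5731, and PLEC, the linker plectin, at 119 and 108. Of the genes of chromatin tethering and nuclear transport, 0 of 11 passed and 1 was at an unadjusted p under 0.05. Their differences had a median of 0.29 and were positive for 10 of 11, against 4600 of 8820 over all tested genes. These 11 genes share the libraries, so the count is a description. The largest of the 11 differences was that of KPNA2, an importin alpha, at 30.5 and 13.1 (difference 1.33, limma adjusted p = 0.078). With edgeR 0 passed in each of these lists, and with DESeq2 1 gene, ACTN2, did. With 1 library left out, TMEM38A passed in 3 of 12 limma fits (without cat 22, 23 or 30), and ACTN2 and KPNA2 in 1 each (without cat 22). KPNA2 also passed without both libraries of doubtful identity. The genes named here outside the 10 were picked after their values were seen.

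Age and myocardial fibrosis were set against the levels by cat, because the study ranked genes by their correlation with such traits. Both traits came from the study's cohort list by cat number, for 9 and 8 cats. Spearman's rho with exact permutation called 0 of 8820 genes (0%) for age and 0 (0%) for fibrosis. At an unadjusted p under 0.05, 416 genes (4.72%) and 250 genes (2.83%) passed, and 0 of the 8 tested genes in each. Slopes tested with limma called 0 genes for either trait. For age, rho was negative for 6 of the 8 genes and positive for SYNE1 and SYNE2, whereas the median over all tested genes was -0.017. SUN1 had a rho of -0.633 (two-sided exact permutation p = 0.0760, adjusted p = 0.917) and a Pearson r of -0.342 (exact permutation p = 0.361). Leaving out the cats farthest from the median age moved r to -0.149 (30 and 15) or -0.330 (30 and 36), and centering on flow cells gave -0.543. LMNA had a rho of -0.583 (exact permutation p = 0.108, adjusted p = 0.922) and an r of -0.550 (exact permutation p = 0.124), which moved to -0.334 and -0.395 when these cats were left out and to -0.643 when flow cells were centered. EMD had the largest r, -0.606 (exact permutation p = 0.0874). It moved to -0.114 and -0.526 when these cats were left out and to -0.676 when flow cells were centered. With flow cell as a term, the limma slope of LMNB1 had an unadjusted p of 0.0159 (adjusted p = 0.314). In that fit, 1017 of 8820 genes were under an unadjusted 0.05.

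For fibrosis, the largest rho was that of SUN2, -0.714 (two-sided exact permutation p = 0.0576, adjusted p = 1). Pearson r was -0.736 (exact permutation p = 0.0430, unadjusted, with no share over all genes computed for r). It was -0.595 with cats 23 and 15, which lay farthest from the median, left out, and -0.853 within flow cells for 7 cats. The relation kept its sign in each of these, which reuse the same cats and are not separate evidence. Its rho did not pass over all genes. The other rho values were 0.452 for LMNA, 0.310 for EMD, 0.167 for SUN1, 0 for TMPO, -0.095 for LMNB1, -0.238 for SYNE1 and -0.310 for SYNE2, with exact permutation p of 0.267 or more.

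By outcome, the values are given without a test, since the labels do not hold it. LMNA ranged from 69.0 to 139 with a median of 88.9 in the 6 cats with congestive HF, from 59.6 to 87.3 in the 3 cats with ATE, and was 113 in the cat without known cardiac death. EMD ranged from 38.1 to 71.0 with a median of 43.2 in congestive HF, was 67.6, 75.2 and 72.8 in cats 10, 23 and 38 with ATE, and was 61.4 in cat 36. The values of cats 23 and 38 lay above the HF range, and that of cat 10 lay within it, between those of cats 11 (66.1) and 31 (71.0). SUN2 ranged from 31.4 to 71.7 in congestive HF and from 36.3 to 58.6 in ATE. SYNE1 ranged from 12.8 to 58.5 in congestive HF and from 13.4 to 33.8 in ATE, and within each outcome the highest values were those of flow cell B. LMNB1 ranged from 0 to 46.8 in congestive HF, where cats 15 and 11 stood at the ends, and from 2.69 to 5.64 in ATE. In scaled reads, cat 36 had the highest SYNE2 (37.4) and the second highest LMNA, LMNB1 and SUN2 levels. These ranks of cat 36 depended on the scaling and were not kept in CPM. There, SYNE2 was 23.9 in cat 36 and 27.0 in cat 38, and LMNA was 72.3 in cat 36 and 85.6 in cat 37. SUN2 was 47.8 in cat 36, under cats 35 (63.3) and 30 (59.2), and LMNB1 was 10.2 in cat 36 and 10.7 in cat 30.

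Among themselves the 10 genes form 45 pairs, whose rank correlations over the 12 libraries ran from -0.734 to 0.797 with a median of 0.182, 28 of them positive. These correlations share the libraries, their depth and their scaling, and are given as descriptions. The highest were those of SUN1 with TMPO (0.797), LMNA with LMNB2 (0.699) and EMD with SUN1 (0.608), and SUN1 with SUN2 reached 0.566. SYNE2 stood against most others, with -0.734 for LBR, -0.559 for LMNB2 and -0.510 for LMNA, and SYNE1 had -0.497 with EMD. LBR and LMNB2 were under the filter, with 82 and 71 reads in all. The spread of TMPO was close to counting error (38.7% against 31.5%), so the ranks of these genes hold much counting error. The nesprins had 0.364 with each other, which was -0.13 for log2 values within flow cells. Within flow cells, 38 of the 45 pairs kept their sign.

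**Figure D5:**
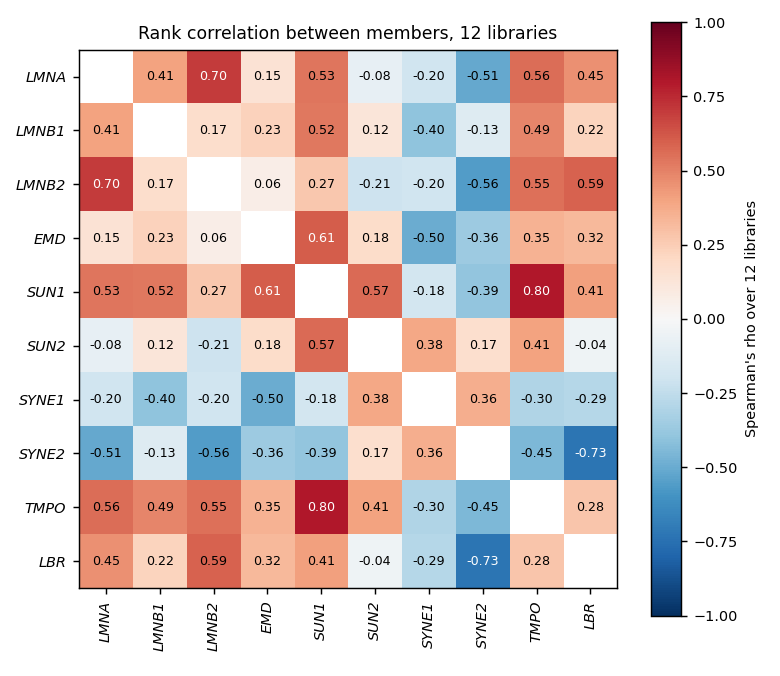
Spearman's rho (color and printed value) between each pair of the 10 genes over 12 libraries, with the genes on both axes. SUN1 and TMPO have the highest value, 0.797, and SYNE2 and LBR the lowest, -0.734. LBR and LMNB2 were under the filter on reads.

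The tested genes most alike in rank over the 12 libraries were RFWD2 (rho 0.867), ENTPD4 (0.860) and NIFK (0.860) for LMNA, CDK5RAP3 (0.909), LOC111560209 (0.909) and GRB14 (0.867) for SYNE1, and YTHDC1 (0.895), EIF3E (0.881) and PHF2 (0.867) for SUN2. These are the top 3 of 8820 genes for each, and no p is given. The correlation of log2 values within flow cells was 0.88 for LMNA with RFWD2 and 0.89 for SUN2 with YTHDC1, and it was 0.45 for SYNE1 with GRB14.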

How the data were processed

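The authors prepared mRNA from 12 left ventricles with a direct RNA kit. Base calling was done in Guppy, reads of low quality were removed, the rest were aligned to felCat9 by Minimap2, and FeatureCounts gave the reads of each gene. The strand setting is not given in the sources used here. The deposited signal values are these reads over a median-of-ratios size factor of each library: in each library 100% of values were whole reads (tolerance 1e-06), and recomputed factors differed by a relative 2.2e-15 at most. No source used here names this division.

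Groups were the flow cells in the library names. The filter kept genes with 10 reads or more in 3 libraries or more. They were tested with limma (intensity trend) on log2(value + 1), and with Spearman's rho by exact permutation of a trait over cats. Adjusted p-values are Benjamini-Hochberg values over 8820 genes. Each library comes from another cat, so p-values measure the spread between libraries of different cats. In the flow cell comparisons the runs themselves are not replicated. For flow cell A against the other 8 libraries, B and C were pooled, so that spread also holds any difference between B and C. edgeR and DESeq2 were run on the recovered reads. Other alternatives were unscaled reads, TMM-scaled log2 CPM, other pseudocounts and filters, 3 flow cells as groups, limma slopes, total fibrosis, and libraries left out. The tests were also run on simulated counts with a fixed dispersion and no run effect. These data need not follow such settings, so no conclusion about the 10 genes is drawn from that run. The members and lists were chosen with earlier results of these data known. Every one of the 10 genes is named, genes of other lists where their adjusted p was under 0.05 (at most 5 per list and direction), and the 3 genes most alike to LMNA, SYNE1 and SUN2. Further genes of these lists were named after their values were seen, as is said beside them. Intervals and floors cover counting error only. Sequences and coordinates were not used here, since the gene table at hand is of another build. Python 3.11.15 was used with scipy 1.17.1, numpy 2.4.6, matplotlib 3.10.9 and pandas 2.3.3, and R 4.3.3 with DESeq2 1.42.0, edgeR 4.0.16 and limma 3.58.1.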

Additional observations from a re-analysis of the deposited data

Results flagged for a closer look

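Within flow cells of 4 libraries, the gap of the highest or lowest library to its neighbor was compared with Dixon's 95% critical value in 30 groups, where chance gives about 1 in 20. The comparison was made on scaled reads only, and 2 of the 30 groups passed, which is near that rate. Among 4 libraries of flow cell B, the LMNA level of cat 36 was 113 (127 reads), and the others stood between 69.4 and 75.5. In CPM, LMNA was 52.3 in cat 15, 59.2 in cat 10, 66.0 in cat 35 and 72.3 in cat 36, so cat 36 did not stand apart. Among the 4 libraries of flow cell A, the TMPO level of cat 31 was 18.3 (23 reads), and the others stood between 9.40 and 10.1. In CPM, TMPO was 14.5 in cat 31 and between 8.84 and 9.87 in the others. These 2 values rest on few libraries, and the counting intervals overlap: that of LMNA in cat 36 with that of cat 10, and that of TMPO in cat 31 with those of the other libraries of its flow cell.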

How the results depend on the processing

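None of the 8 tested genes of the lamina and LINC complex passed an adjusted p of 0.05 under any alternative run, for flow cells, age or fibrosis. The count over all genes did move. For flow cell A against the others it was 81 without scaling, which also shifted the median of all genes from 0.03 to 0.41, and 827 with DESeq2, against 446. Leaving out 1 library gave 51 to 492, with 51 without cat 11, 129 without cat 31 and 296 without cat 15. For flow cell B against C it was 8 without scaling, 0 with a pseudocount of 0.5, 6 over all genes with a read, 0 with 10 reads in 6 libraries, 0 with edgeR and 38 with DESeq2, against 3, and 0 to 17 with 1 library left out. Signs changed for some genes, none of them called. Without scaling, these were SUN2 on flow cell A (0.047), LMNA (0.12) and SUN1 (0.017) between B and C, SYNE2 (-0.14) and SYNE1 (-0.084) with age, and EMD (-0.119), LMNA (-0.476) and SUN1 (-0.405) with fibrosis. LMNB1 between B and C turned to 0.079 with edgeR and 0.040 with DESeq2. The fibrosis slope turned to -0.014 for SUN1, and with flow cell as a term to -0.0041 for LMNA and -0.034 for SUN1. With 1 library left out, the difference of EMD on flow cell A ranged from -0.0060 to 0.28, and between B and C those of LMNA from -0.18 to 0.091, LMNB1 from -1.24 to 0.12 and SUN1 from -0.32 to 0.11. The rank correlation with age ranged from -0.548 to 0.119 for SUN2, from -0.048 to 0.619 for SYNE2 and from -0.024 to 0.595 for SYNE1. At an unadjusted exact permutation p under 0.05, LMNB1 passed for age without cat 30 (-0.881), as did 493 of 8820 genes. Without cat 38, LMNA and SUN1 did (-0.786 each), among 468 genes. The rank correlation with fibrosis ranged from -0.036 to 0.714 for EMD, from -0.607 to 0.143 for SYNE1 and from -0.429 to 0.286 for LMNB1. The causes were not tested. No paired analysis was possible because the flow cells share no replicate numbers.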
